A study of Mus musculus with 28 samples.

Results

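The guanylate-binding protein genes Gbp2 to Gbp9 were followed through bulk RNA sequencing of 28 cultures of murine bone marrow-derived macrophages (BMDM). The members were chosen by name, and all 8 were found among the 54532 genes of the count table. BMDM are macrophages grown from mouse bone marrow with the growth factor M-CSF, here from adult mice of a C57 black strain that the study's methods name as C57/B6JB. The study asked how macrophages respond to von Willebrand factor (VWF), the plasma protein that tethers platelets to collagen, and used bacterial lipopolysaccharide (LPS), a cell wall component sensed by macrophages, for comparison. Cultures received PBS as the control, plasma-derived VWF (pd-VWF) at 10 µg/ml or LPS at 100 ng/ml, all in medium with added CaCl2, for 3.5 h or 16 h. Each time had 5 cultures with PBS, 5 with VWF and 4 with LPS. The labels name no genetic change in any group. The labels call the cultures biological replicates without saying whether they came from separate animals, so p values measure the spread between cultures.

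Guanylate-binding proteins (GBPs) are large GTPases that interferons induce strongly in macrophages. They assemble on vacuoles that hold microbes and on bacteria in the cytosol, where they expose bacterial LPS to caspase-11, the product of Casp4, and promote inflammasome activity and pyroptosis. Gbp2 and Gbp5 carry a lipid anchor added by prenylation, and Gbp5 is also known for a role in assembly of the NLRP3 inflammasome. Mouse Gbp genes form a cluster on chromosome 3 and another on chromosome 5. Their promoters are classical targets of interferon signalling and hold interferon-stimulated response elements (ISRE), which the transcription factors IRF1 and IRF9 bind, and gamma-activated sequences (GAS).

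In GRCm38 coordinates of the GENCODE M21 annotation, Gbp5 (ENSMUSG00000105504, chr3:142493978-142522344), Gbp7 (ENSMUSG00000040253, chr3:142530342-142550149), Gbp3 (ENSMUSG00000028268, chr3:142560026-142573209) and Gbp2 (ENSMUSG00000028270, chr3:142620602-142638008) lie in this order on the plus strand. Gbp8 (ENSMUSG00000034438, chr5:105014150-105139540), Gbp9 (ENSMUSG00000029298, chr5:105077630-105139539), Gbp4 (ENSMUSG00000079363, chr5:105115767-105139586) and Gbp6 (ENSMUSG00000104713, chr5:105270702-105293698) lie on the minus strand of chromosome 5. All 8 are annotated as protein coding. The annotated spans of Gbp8, Gbp9 and Gbp4 overlap each other, with between 0.814% and 1.77% of each gene's exon length in common with the others.

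The RefSeq promoter set for GRCm38.p6 held 4 of the 8 members, Gbp5, Gbp7, Gbp3 and Gbp2. Their upstream stretches are shown for the interferon-type motifs they hold, and no motif was tested against expression. The 250 bases before each RefSeq start were searched on both strands for GAAANNGAAA (ISRE), TTCNNNGAA (GAS) and GGGNNTTTCC (NF-kB type), and matches are in capitals. The stretches run 5′ to 3′ on the plus strand, at chr3:142496684-142496899 for Gbp5, chr3:142530086-142530335 for Gbp7, chr3:142559794-142560025 for Gbp3 and chr3:142620413-142620613 for Gbp2. The stretches of Gbp5, Gbp7 and Gbp3 hold no annotated exon base, while that of Gbp2 ends with 12 bases of the annotated first exon, where its ISRE match lies. The stretch of Gbp5 lies inside the annotated span of the gene, which begins further upstream than the RefSeq start used here, and stops short of that start where an annotated exon begins.
Gbp5 promoter: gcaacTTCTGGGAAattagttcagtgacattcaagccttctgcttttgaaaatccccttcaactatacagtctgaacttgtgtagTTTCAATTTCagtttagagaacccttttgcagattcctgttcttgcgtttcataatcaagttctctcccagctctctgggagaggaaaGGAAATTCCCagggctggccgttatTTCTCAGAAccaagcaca
Gbp7 promoter: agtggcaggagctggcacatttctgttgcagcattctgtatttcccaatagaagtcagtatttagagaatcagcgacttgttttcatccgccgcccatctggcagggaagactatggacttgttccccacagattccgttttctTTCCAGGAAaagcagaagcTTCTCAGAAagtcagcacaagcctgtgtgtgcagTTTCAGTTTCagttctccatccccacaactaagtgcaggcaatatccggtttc
Gbp3 promoter: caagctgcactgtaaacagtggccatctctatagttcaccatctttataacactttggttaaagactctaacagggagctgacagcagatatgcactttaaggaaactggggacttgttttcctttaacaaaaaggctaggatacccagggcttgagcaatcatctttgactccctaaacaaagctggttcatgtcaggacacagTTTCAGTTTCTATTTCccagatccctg
Gbp2 promoter: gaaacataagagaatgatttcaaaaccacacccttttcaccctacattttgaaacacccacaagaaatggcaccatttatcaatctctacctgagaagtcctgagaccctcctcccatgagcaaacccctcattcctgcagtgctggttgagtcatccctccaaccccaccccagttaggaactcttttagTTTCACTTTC

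An ISRE match was present upstream of all 4 members, starting at position -165 for Gbp5, -53 for Gbp7, -45 and -39 for Gbp3 and -59 for Gbp2 counted from the RefSeq start. The matches at -45 and -39 of Gbp3 overlap each other, and a further RefSeq start of Gbp3 had no match to any of the motifs. Among all 32851 promoters of the set, 2.98% held an ISRE match. GAS matches were found in Gbp5 (at -245 and -52) and in Gbp7 (at -106 and -87), against 7.02% of all promoters. The NF-kB type match was found in Gbp5 at -77, against 1.41% of all promoters. These matches describe the letters of the windows and are not measured binding sites.

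Related sequence could move reads between Gbp genes, and how the authors' counting treated reads that fit several places is not given in the sources used here. All stretches of 100 bases in the transcripts of each member were therefore looked up in the transcripts of other genes. The share found elsewhere was 0% for Gbp2, 0.142% for Gbp5, 0.694% for Gbp3, 1.64% for Gbp4, 1.65% for Gbp9, 4.39% for Gbp8 and 10.0% for Gbp7. Most of the shared windows of Gbp7 (9.59% of its windows) were in the gene model Gm43802, which had 0 counts in every culture. Exons of Gm43802 overlap 11.35% of the exon length of Gbp7 in the annotation. Gbp6 stood apart with 64.5% of its windows shared, 59.0% with the gene model Gm43302 and 36.3% with Gbp10. Gm43302 had at most 5 counts in any culture, and its exons overlap 29.0% of the exon length of Gbp6. How reads in such overlaps were counted is not known. The low counts of these models therefore do not show that the counts of Gbp7 and Gbp6 are whole. The coding sequences of Gbp6 and Gbp10 were identical at 98.4% of aligned bases. Coding identity among the chromosome 5 members lay between 89.6% for Gbp4 and Gbp9 and 92.9% for Gbp4 and Gbp8. Among the 4 chromosome 3 members the closest pair was Gbp3 and Gbp7, at 78.3%, and Gbp5 was 61.6% to 67.9% identical to the other members there. Values for Gbp6 are therefore the least certain of the 8.

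Total counts per culture lay between 41131209 and 77699206. Each comparison kept the genes that reached 10 TPM (counts per exon length brought to a common total) in at least 1 of its cultures, and 8867 genes did so in at least 1 of all 28 cultures. Of the 8 members, 7 did so, and Gbp8 did not. Levels are given as CPM (counts relative to the total of the library, scaled by TMM factors), with the mean ± SD over cultures. Tests are edgeR's quasi-likelihood tests with Benjamini-Hochberg adjustment over all genes of the comparison, and a gene was called when its adjusted p was below 0.05 and its level differed by more than 1 on the log2 scale. TMM factors were lower in LPS-treated cultures (0.735 to 0.848) than in control cultures (0.945 to 1.18). All 7 macrophage markers checked (such as Adgre1, Csf1r and Lyz2) were detected in every culture. At 3.5 h their summed level was 17975 to 29808 in controls, 17772 to 23215 with VWF and 8689 to 15831 TPM with LPS. At 16 h it was 6437 to 34845, 28020 to 50051 and 5697 to 15201 TPM. Lyz2 made up most of the sum, and single markers went both ways. With LPS at 16 h mean Fcgr1 was above control (1855 against 122 TPM) and mean Csf1r below (301 against 471 TPM). With VWF at 3.5 h Fcgr1 was also above control (182 against 119 TPM), and Mertk below (8.25 against 61.5 TPM). Single cultures stood apart in the summed level. It was 6437 TPM in Control 16 h replicate 5 against 28287 to 34845 TPM in the other 4 of its group, and 5697 TPM in LPS 16 h replicate 4 against 11444 to 15201 TPM in the other 3, and each of these cultures was the lowest of its group for all 7 markers. LPS 3.5 h replicate 1 (8689 TPM against 15125 to 15831 TPM) and VWF 16 h replicate 4 (28020 TPM against 42928 to 50051 TPM) were the lowest for 6 of 7. With any 1 of these 4 cultures left out, the counts of members called in the comparisons of VWF or LPS with control and with each other were as with it, and the calls that were lost between the times are given where they arise. T and NK cell markers summed to at most 1.35 TPM, B cell markers to at most 0.659 TPM, the 5 neutrophil markers to at most 20.1 TPM and stromal markers to between 4.05 and 145 TPM. Among the neutrophil markers Camp was higher in each VWF culture than in each control culture of its time, at 3.55 to 6.27 TPM against 0 to 1.08 TPM at 3.5 h and 6.44 to 10.4 TPM against 0.054 to 1.95 TPM at 16 h, while Ly6g was at 0 counts in all VWF cultures. The 4 dendritic cell markers summed to 0.320 to 0.905 TPM in controls, 8.27 to 10.2 TPM with VWF at 3.5 h, 0.545 to 1.67 TPM with VWF at 16 h and 6.73 to 11.9 TPM with LPS. This came mostly from Xcr1, while Flt3 was at most 0.067 TPM in every culture. The part of these markers in the results below was not tested. In bulk RNA, fewer cells of a type and less RNA per cell cannot be told apart.

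The Gbp genes were low in control macrophages, and all but Gbp8 were higher with VWF. All 8 were higher with LPS than with VWF. Summed over the 8 members, the level was 25.0 ± 2.59 CPM in controls, 1421 ± 266 CPM with VWF and 4445 ± 567 CPM with LPS at 3.5 h (n = 5, 5 and 4). At 16 h it was 19.0 ± 6.66 CPM in controls, 190.3 ± 35.9 CPM with VWF and 4509 ± 864 CPM with LPS. The family thus stood far lower with VWF at 16 h than at 3.5 h, whereas the LPS cultures of the 2 times overlapped (3622 to 4908 CPM and 3270.2 to 5212 CPM). As a share of all counts, the family took 0.00289% in controls, 0.143% with VWF and 0.362% with LPS at 3.5 h.

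**Figure D1:**
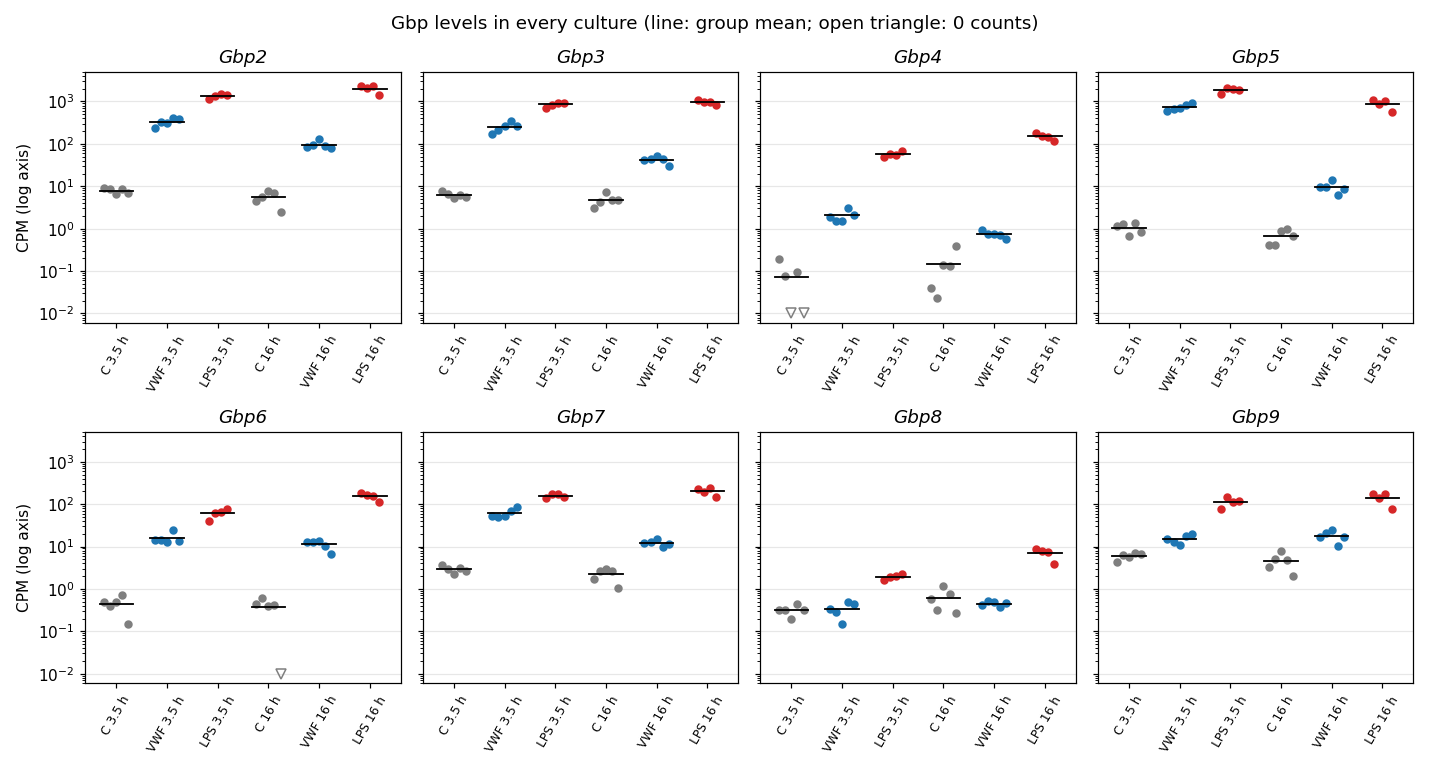
Level of each member in every culture, in CPM on a log axis, for control (C, grey), VWF (blue) and LPS (red) at 3.5 h and 16 h, with a line at the group mean and an open triangle at the bottom of the axis for a culture with 0 counts. Every member but Gbp8 was higher in each VWF culture than in each control culture of the same time, and Gbp5 dropped from 739.9 CPM at 3.5 h to 9.60 CPM at 16 h with VWF.

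Gbp5 had the largest fold change with VWF among the members at 3.5 h, though not at 16 h. Its level was 1.13, 1.30, 0.674, 1.35 and 0.814 CPM in the 5 control cultures at 3.5 h. It was 590.3, 667, 701, 845 and 897 CPM in the 5 VWF cultures and 1506, 2036, 2018 and 1820.1 CPM in the 4 LPS cultures. The groups did not overlap. At 16 h the controls held 0.418, 0.423, 0.888, 1.01 and 0.657 CPM, the VWF cultures 9.53, 9.75, 13.9, 6.14 and 8.65 CPM and the LPS cultures 1097, 872, 1020.3 and 577 CPM. Every VWF culture at 16 h was again above every control, but far below every VWF culture at 3.5 h.

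Gbp2, a prenylated member with broad activity against bacteria, had the highest level per exon length of the 8 in all 6 groups when length was the union of exons. It held 6.73 to 9.07 CPM in controls at 3.5 h and 2.51 to 7.87 CPM at 16 h. In VWF cultures it was 241, 321, 316, 413 and 385 CPM at 3.5 h and 85.2, 93.6, 129.9, 88.1 and 81.5 CPM at 16 h. In LPS cultures it was 1122, 1383, 1543 and 1391 CPM at 3.5 h and 2267, 2116, 2263 and 1415 CPM at 16 h. Treated and control cultures were separated at both times, and VWF and LPS cultures were too.

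Gbp3 and Gbp7, neighbours of Gbp2 and Gbp5, followed the same order of groups as Gbp2. Gbp3 stood at 5.36 to 7.61 CPM in controls, 172 to 338 CPM with VWF and 691 to 945 CPM with LPS at 3.5 h. At 16 h it stood at 3.02 to 7.26 CPM, 30.7 to 51.8 CPM and 819 to 1080.5 CPM. Gbp7 stood at 2.25 to 3.57 CPM in controls, 49.6 to 84.6 CPM with VWF and 137 to 172 CPM with LPS at 3.5 h, and at 1.02 to 3.01, 9.73 to 15.1 and 149 to 240.2 CPM at 16 h. For Gbp2, Gbp3 and Gbp7 the LPS groups of the 2 times overlapped, as did the control groups, and each other step in the order of the groups was free of overlap.

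Gbp4 separated VWF from LPS most among the members. It had between 0 and 11 reads in each control culture at 3.5 h and between 2 and 20 at 16 h. With VWF it reached 1.90, 1.55, 1.51, 3.16 and 2.12 CPM at 3.5 h and 0.912, 0.757, 0.731, 0.7099 and 0.567 CPM at 16 h. With LPS it reached 48.9, 56.7, 54.0 and 69.7 CPM at 3.5 h and 181, 157, 145 and 119 CPM at 16 h. All steps between the treated groups were free of overlap.

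Gbp6 was at 0.146 to 0.736 CPM in controls at 3.5 h and at 0 to 0.599 CPM at 16 h. It was 13.9, 14.6, 12.98, 24.8 and 13.6 CPM with VWF at 3.5 h and 12.6, 12.8, 13.5, 10.5 and 6.73 CPM at 16 h, so that these groups overlapped. With LPS it was 40.5, 61.5, 63.6 and 77.7 CPM at 3.5 h and 179, 162, 154 and 113 CPM at 16 h, without overlap. The values of Gbp6 may hold reads of Gbp10 and the reverse, since their transcripts share windows.

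Gbp9 had the highest control level per exon length of the chromosome 5 members (2.59 to 4.82 TPM at 3.5 h). It was 4.24, 6.25, 5.79, 6.92 and 6.80 CPM in controls at 3.5 h and 3.37, 5.07, 7.94, 4.75 and 2.03 CPM at 16 h. With VWF it was 14.7, 12.9, 10.7, 17.7 and 19.6 CPM at 3.5 h and 16.8, 20.5, 24.0, 10.4 and 16.5 CPM at 16 h. With LPS it was 75.7, 145, 111 and 117 CPM at 3.5 h and 174, 136, 171 and 74.9 CPM at 16 h. For both treatments the 2 times overlapped.

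Gbp8 stayed at or below 1.18 CPM in every control and VWF culture at both times, and these groups overlapped. It was 1.59 to 2.19 CPM with LPS at 3.5 h and 3.86 to 8.54 CPM at 16 h. In LPS cultures at 16 h, replicate 4 had the lowest level of its group for each of the 8 members. Without it the 7 members called against control and the 7 called against VWF at 16 h were still called, and the fold changes at 16 h are given with it included.

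At 3.5 h each of the 6 members tested was higher in all VWF cultures than in all controls, where 18.0% of genes were, and each of the 7 tested was higher in all LPS cultures than in all controls, where 26.1% were. Each of the 7 was also lower in all VWF cultures than in all LPS cultures, where 19.3% of genes were. At 16 h the corresponding shares of all genes were 12.7%, 23.5% and 26.1%, and 3 of 3, 7 of 7 and 7 of 7 members were separated. The VWF and LPS comparisons of a time share their control cultures. Between VWF and LPS, LPS cultures alone brought Gbp4 over the filter at 3.5 h, and Gbp4, Gbp5, Gbp6 and Gbp7 at 16 h. The counts of separated members are therefore descriptions.

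The comparison of VWF with control at 3.5 h addressed the early response to VWF. All 6 members that passed the filter were called higher, where 9.18% of the 8200 genes tested were called higher. Gbp5 rose by 9.48 ± 0.25 (SE) on the log2 scale, a 712-fold change with an adjusted p of 6.3e-10 by edgeR. Gbp2 and Gbp3 rose by 5.43 ± 0.17 and 5.34 ± 0.20, Gbp6 by 5.13 ± 0.34 and Gbp7 by 4.43 ± 0.19. The change of Gbp9 was 1.36 ± 0.19, or 2.57-fold, with an adjusted p of 9.5e-05. Gbp6 passed the filter through VWF replicate 4 alone and Gbp9 through VWF replicate 5 alone, and with either culture left out 5 members were tested and called. The median log2 fold change of the 6 members was 5.24, against 0.0015 over all genes tested. In the controls Gbp2 alone reached 10 TPM, and that at 3.5 h only, so the other members entered the comparisons through treated cultures. Counts and medians over the members that passed are therefore descriptions.

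Members under the filter were also fitted without it. Gbp4 rose by 4.83 ± 0.58 on the log2 scale at 3.5 h (adjusted p = 1.6e-05, edgeR), on the few control reads given above. Gbp8 had a log2 fold change of 0.18 with a 95% interval of -0.63 to 0.98 and an adjusted p of 0.80 in that edgeR fit.

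LPS against control at 3.5 h served as the comparison of a strong macrophage activator. All 7 members that passed were called higher, against 12.8% of 8190 genes. The log2 fold changes were 10.79 ± 0.25 for Gbp5, 9.57 ± 0.41 for Gbp4, 7.44 ± 0.16 for Gbp2, 7.10 ± 0.16 for Gbp3, 7.04 ± 0.32 for Gbp6, 5.76 ± 0.15 for Gbp7 and 4.25 ± 0.20 for Gbp9. Adjusted p values by edgeR lay between 1.0e-10 and 1.1e-08. Gbp8, fitted without the filter, rose by 2.68 ± 0.31.

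**Figure D2:**
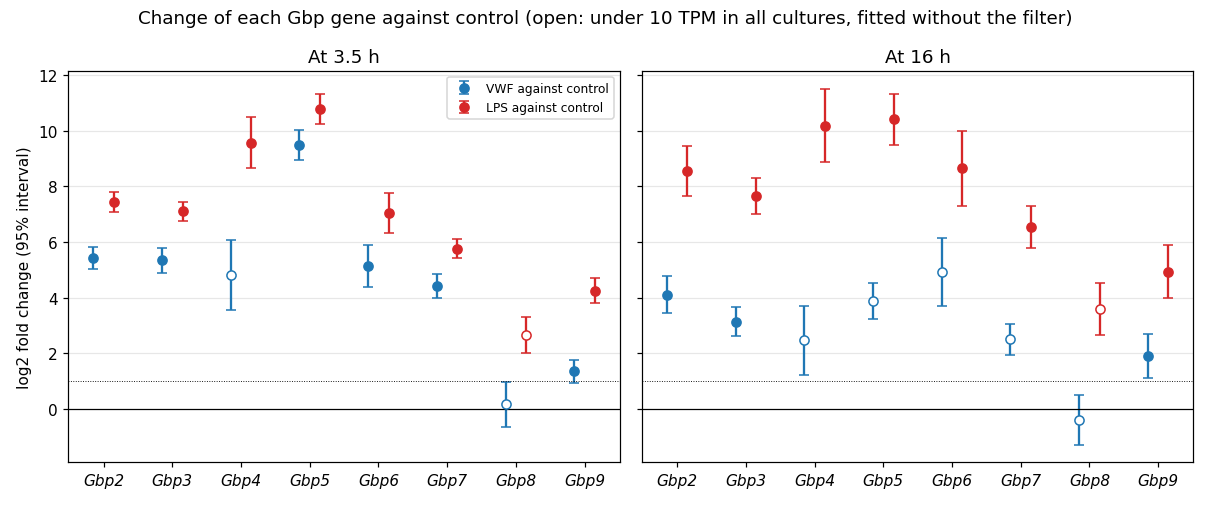
Log2 fold change of each member against control, with its 95% interval, for VWF (blue) and LPS (red) at 3.5 h (left) and 16 h (right), and a dotted line at 1. Open points are members under 10 TPM in all cultures of the comparison, fitted without the filter. The LPS change was above the VWF change for every member at both times, and the interval of Gbp8 with VWF included 0 at both times.

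Direct comparison of VWF with LPS at 3.5 h gave 7 of 7 members called lower with VWF, against 6.71% of 7500 genes. Gbp4 passed the filter through LPS cultures alone (at most 1.08 TPM with VWF), so the count is a description. The gap was smallest for Gbp5 (-1.30 ± 0.14 on the log2 scale) and Gbp7 (-1.31 ± 0.16). Gbp2 differed by -1.998 ± 0.15, Gbp3 by -1.74 ± 0.18 and Gbp6 by -1.91 ± 0.23. It was widest for Gbp9 (-2.87 ± 0.21) and Gbp4 (-4.79 ± 0.22). As a share of the LPS mean, the VWF mean was 40.1% for Gbp5, 39.6% for Gbp7, 29.4% for Gbp3, 24.7% for Gbp2, 26.3% for Gbp6, 13.4% for Gbp9 and 3.57% for Gbp4. Adjusted p values by edgeR were at most 6.1e-05. Gbp8, fitted without the filter, was also called lower with VWF (-2.53 ± 0.33). With scaling to library size alone, Gbp5 stood at -1.01 and Gbp7 at -1.02, at the edge of the fold threshold.

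At 16 h, 3 members passed the filter in the comparison of VWF with control, Gbp2, Gbp3 and Gbp9, and all 3 were called higher, against 4.55% of 7798 genes. Gbp2 was higher by 4.12 ± 0.30 on the log2 scale, Gbp3 by 3.14 ± 0.23 and Gbp9 by 1.92 ± 0.35, with adjusted p values by edgeR of 4.8e-06, 5.0e-06 and 0.0021. The other 5 members stayed under 10 TPM in every culture of both groups. Fitted without the filter, Gbp6 was called higher at 4.93 ± 0.55, Gbp5 at 3.89 ± 0.30, Gbp7 at 2.52 ± 0.26 and Gbp4 at 2.47 ± 0.58. Gbp8 had a log2 fold change of -0.39 with a 95% interval of -1.27 to 0.50 and an adjusted p of 0.58 in the same edgeR fit. The filtered count thus leaves out Gbp4, Gbp5, Gbp6 and Gbp7, whose VWF cultures at 16 h all lay above the controls. The share of all genes called without the filter is not given here.

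LPS against control at 16 h gave 7 of 7 members called higher, against 15.3% of 7994 genes. Gbp5 was higher by 10.40 ± 0.40 on the log2 scale and Gbp4 by 10.18 ± 0.59. Gbp6, Gbp2, Gbp3 and Gbp7 were higher by 8.66 ± 0.60, 8.56 ± 0.40, 7.66 ± 0.28 and 6.54 ± 0.34, and Gbp9 by 4.94 ± 0.42. Adjusted p values by edgeR were at most 8.1e-06. Gbp8, fitted without the filter, was higher by 3.61 ± 0.43.

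VWF was below LPS in 7 of 7 members at 16 h, against 14.5% of 7574 genes. Gbp4, Gbp5, Gbp6 and Gbp7 passed the filter here through LPS cultures alone. With VWF they reached at most 0.343, 6.38, 6.92 and 8.19 TPM, so the count is a description. The log2 differences were -7.67 ± 0.18 for Gbp4, -6.53 ± 0.30 for Gbp5, -4.47 ± 0.16 for Gbp3, -4.39 ± 0.20 for Gbp2, -4.04 ± 0.18 for Gbp7, -3.76 ± 0.22 for Gbp6 and -2.97 ± 0.30 for Gbp9. Gbp8, fitted without the filter, was called lower as well (-3.93 ± 0.27). The VWF mean was 1.08% of the LPS mean for Gbp5, 4.75% for Gbp2, 4.49% for Gbp3 and 12.7% for Gbp9. The share was highest for Gbp9 among the 8 members at this time, and for Gbp5 at 3.5 h.

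Reads could be split among related chromosome 5 genes, and how far this moved the values of single members was not tested. A sum of genes with different fold changes differs from the single genes however their reads were split. The summed values below are therefore descriptions and do not measure such a split. With the 6 chromosome 5 genes Gbp4, Gbp6, Gbp8, Gbp9, Gbp10 and Gbp11 summed as 1 feature, the log2 fold change with VWF at 3.5 h was 2.33, where Gbp6 alone had 5.13 and Gbp9 alone 1.36. With LPS at 3.5 h the sum had 5.13, where Gbp4 alone had 9.57. At 16 h the sum had 2.37 with VWF and 6.33 with LPS, and the difference of VWF from LPS was -2.78 at 3.5 h and -3.91 at 16 h. The sum was called in each of these comparisons.

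In controls the cultures of the 2 times overlapped for each of the 8 members. Gbp2, the only member to pass the filter, had a log2 difference of -0.53 at 16 h against 3.5 h with a 95% interval of -1.12 to 0.06 and an adjusted p of 0.13 by edgeR, and 0 members were called, against 4.99% of 8333 genes called lower. Its unadjusted p was 0.071, so 0 members had an unadjusted p under 0.05, and DESeq2 called 0 as well. Fitted without the filter, the other 7 had unadjusted p values of 0.053 or more in edgeR.

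With VWF, members parted ways between the times. Of the 6 that passed, 4 were called lower at 16 h than at 3.5 h, against 12.2% of 7927 genes called lower. Gbp5, Gbp6 and Gbp7 passed through VWF cultures at 3.5 h alone, so the count is a description. Gbp5 fell by 6.26 ± 0.24 on the log2 scale (adjusted p = 4.7e-09, edgeR), so that 1.30% of its mean level at 3.5 h was left. Gbp3 fell by 2.54 ± 0.19, Gbp7 by 2.33 ± 0.17 and Gbp2 by 1.80 ± 0.17. For Gbp6 the difference was -0.50 with a 95% interval of -0.995 to -0.0039 and an adjusted p of 0.069 by edgeR. For Gbp9 it was 0.24 with an interval of -0.26 to 0.73. Gbp4, fitted without the filter, fell by 1.51 ± 0.26, and Gbp8 had a difference of 0.37 with an interval of -0.39 to 1.13.

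With LPS, 2 of 7 members were called higher at 16 h and 1 lower, against 14.6% and 13.5% of 6987 genes. Gbp4 was higher by 1.42 ± 0.15 and Gbp6 by 1.35 ± 0.20 on the log2 scale, with adjusted p values of 5.0e-05 and 0.00041 by edgeR. Gbp5 was lower by a log2 difference of -1.02 ± 0.20 (adjusted p = 0.0020, edgeR), and this fell under the fold threshold without LPS 3.5 h replicate 2 (-0.98), without LPS 3.5 h replicate 3 (-0.98) or without LPS 16 h replicate 4 (-0.86). Gbp2 had a difference of 0.60 with an adjusted p of 0.013 by edgeR, under the fold threshold. Gbp3, Gbp7 and Gbp9 had differences of 0.19, 0.39 and 0.34 with adjusted p values of 0.23, 0.055 and 0.32 by edgeR. Gbp8, fitted without the filter, was higher by 1.82 ± 0.27.

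**Figure D3:**
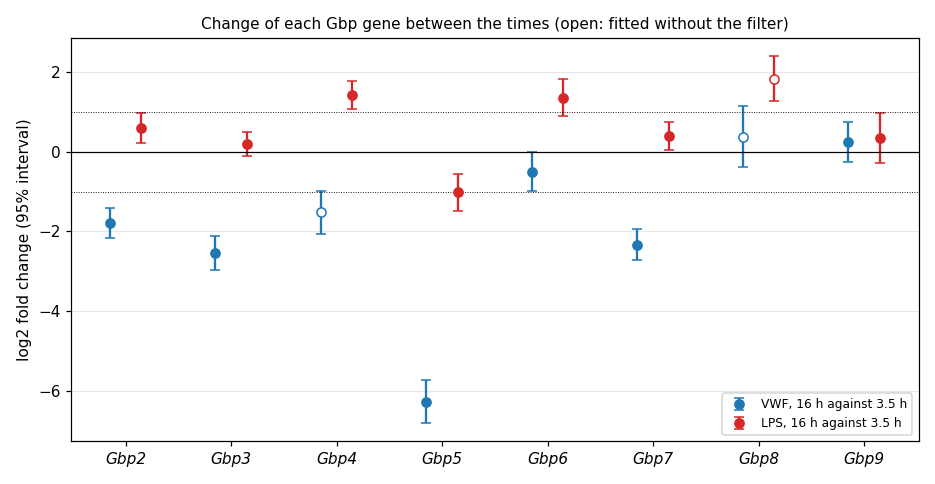
Log2 fold change of each member at 16 h against 3.5 h, with its 95% interval, for VWF (blue) and LPS (red), and dotted lines at -1 and 1. Open points are members fitted without the filter. Gbp5 with VWF stands apart at -6.26, while Gbp6 and Gbp9 with VWF are at -0.50 and 0.24.

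The change of each effect with time was tested by interaction terms. The effect of VWF against control was called smaller at 16 h for 4 of 6 members, against 8.05% of 8660 genes. The interaction was -5.62 ± 0.38 on the log2 scale for Gbp5, -2.18 ± 0.28 for Gbp3, -1.96 ± 0.31 for Gbp7 and -1.28 ± 0.31 for Gbp2, with adjusted p values of at most 0.0031 by edgeR. For Gbp6 and Gbp9 it was -0.26 and 0.59, with 95% intervals of -1.55 to 1.04 and -0.24 to 1.41. The effect of LPS was called larger at 16 h for 2 of 7 members, against 13.5% of 8748 genes. These were Gbp6 (1.62 ± 0.59, adjusted p = 0.032, edgeR) and Gbp2 (1.13 ± 0.33, adjusted p = 0.0096, edgeR). The call of Gbp6 was lost without Control 3.5 h replicate 4 (adjusted p = 0.086), LPS 3.5 h replicate 1 (0.063), LPS 16 h replicate 1 (0.058) or LPS 16 h replicate 2 (0.054) in the edgeR fits. That of Gbp2 fell under the fold threshold without Control 16 h replicate 5 (0.95). The gap between VWF and LPS was called wider at 16 h for 6 of 7 members, against 14.3% of 8217 genes called lower. The interaction was -5.26 ± 0.31 for Gbp5 and between -1.87 ± 0.32 (Gbp6) and -2.90 ± 0.27 (Gbp4) for the others. For Gbp9 it was -0.12 with a 95% interval of -0.91 to 0.66. Gbp8, fitted without the filter, was called with -1.40 ± 0.40 (adjusted p = 0.013, edgeR).

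The make-up of the family was compared as each member's share of the summed TPM of the 8 within a culture. These shares, and the choice to follow Gbp5 and the chromosome 5 members, were added after the values had been seen, so they are given as descriptions with no test. In controls at 3.5 h Gbp2 made up 44.4 ± 1.74%, Gbp3 27.1 ± 1.88%, Gbp9 16.6 ± 3.72%, Gbp7 7.29 ± 0.59% and Gbp5 2.20 ± 0.43%. Gbp2 and Gbp3 thus held most of the small control level. With VWF at 3.5 h Gbp5 made up 33.1 ± 1.79%, beside 39.3 ± 1.34% for Gbp2 and 22.5 ± 2.00% for Gbp3. With LPS at 3.5 h Gbp5 made up 24.2 ± 1.13%. At 16 h its share was 2.00 ± 0.74% in controls, 2.38 ± 0.41% with VWF and 9.93 ± 0.87% with LPS. Gbp5 thus moved from a minor member to a main one with both treatments at 3.5 h, and back to a minor one with VWF at 16 h. With LPS its share was smaller at 16 h than at 3.5 h but above that of controls, and it ranked 3 of the 8 at 16 h. Gbp2 then made up 63.0 ± 2.20% with VWF and 59.7 ± 1.79% with LPS.

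The share of Gbp5 with VWF was 30.7% to 35.2% in the cultures at 3.5 h and 1.67% to 2.64% at 16 h. With LPS it was 23.1% to 25.8% at 3.5 h and 8.90% to 10.8% at 16 h. VWF cultures were thus above LPS cultures at 3.5 h and below them at 16 h. At 16 h the VWF cultures overlapped the controls (1.23% to 3.02%).

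The chromosome 5 members together made up 19.0 ± 3.59% of the family in controls at 3.5 h, 1.78 ± 0.31% with VWF and 3.48 ± 0.46% with LPS. At 16 h they made up 21.2 ± 3.31%, 9.15 ± 1.24% and 5.54 ± 0.30%. With VWF every culture at 16 h (7.19% to 10.4%) was above every culture at 3.5 h (1.39% to 2.19%). The VWF cultures were below the LPS cultures at 3.5 h (3.03% to 3.92%) and above them at 16 h (5.17% to 5.91%). Gbp9 and Gbp6 held most of this share with VWF at 16 h, at 5.64 ± 1.17% and 3.13 ± 0.58%.

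Shares depend on the length that is used for each gene. With the transcript of the longest coding sequence in place of the union of exons, Gbp5 made up 48.1% with VWF and 37.9% with LPS at 3.5 h and ranked first in both groups, ahead of Gbp2 at 26.3% and 33.9%. In the other 4 groups Gbp2 ranked first with either length. The share of Gbp5 at 16 h with that length was 4.39% with VWF and 17.4% with LPS. That of the chromosome 5 members with VWF rose from 2.02% to 12.2% between the times.

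**Figure D4:**
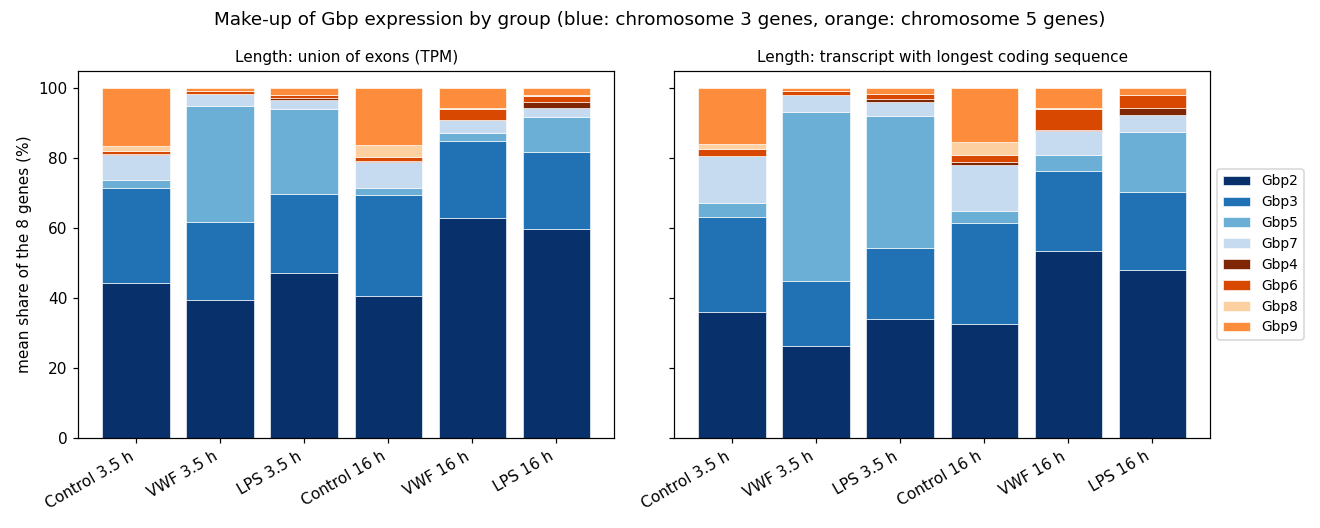
Mean share of each member in the summed level of the 8 genes (%), by group, with levels per union of exons (left) and per transcript with the longest coding sequence (right). Chromosome 3 members are in blue and chromosome 5 members in orange shades, and Gbp5 takes 33.1% (left) or 48.1% (right) with VWF at 3.5 h against 2.38% or 4.39% at 16 h.

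The related genes Gbp2b, Gbp10 and Gbp11 were near the detection limit. Gbp2b, the mouse gene also known as Gbp1, had 0 counts in all control cultures at both times. Against a floor of 3 counts over the control group, it was at least 12.6-fold higher with VWF and at least 34.2-fold higher with LPS at 3.5 h, and at least 66.2-fold higher with LPS at 16 h. With VWF at 16 h it had 9 counts in all, with 0 counts in 2 of the 5 cultures, and was not called (adjusted p = 0.16 by edgeR without the filter). Gbp10 had 2 counts over all VWF cultures and 2 over all LPS cultures at 3.5 h, and 113 over the LPS cultures at 16 h, where it was at least 69.9-fold higher than control. Gbp11 had 1 count over the controls at 3.5 h, 63 over the VWF cultures and 477 over the LPS cultures. At 16 h it had 0 counts in controls, 2 over the VWF cultures and 802 over the LPS cultures, at least 496-fold higher than control. All 3 thus held far fewer reads than Gbp2 or Gbp5, and the floors cover counting error only.

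Genes that act with the GBPs were followed in a list of 41 in 6 roles. At 3.5 h, 21 of the 37 tested were called higher with VWF and 0 lower, with a median log2 fold change of 1.28 against 0.0015 over all genes, and 22 of 37 were called higher with LPS and 0 lower (median 1.48 against -0.02). At 16 h, 7 of 33 were called higher with VWF and 0 lower (median 0.46 against -0.03), and 24 of 37 higher and 1 lower with LPS (median 1.65 against -0.03). The shares of all genes called higher are those given above for each comparison, and 5.52%, 11.8%, 4.15% and 12.4% were called lower. In the direct comparison of VWF with LPS, 1 list gene was called higher and 14 lower of 37 at 3.5 h (4.71% and 6.71% of all genes), and 1 higher and 21 lower of 37 at 16 h (11.1% and 14.5%).

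**Figure D5:**
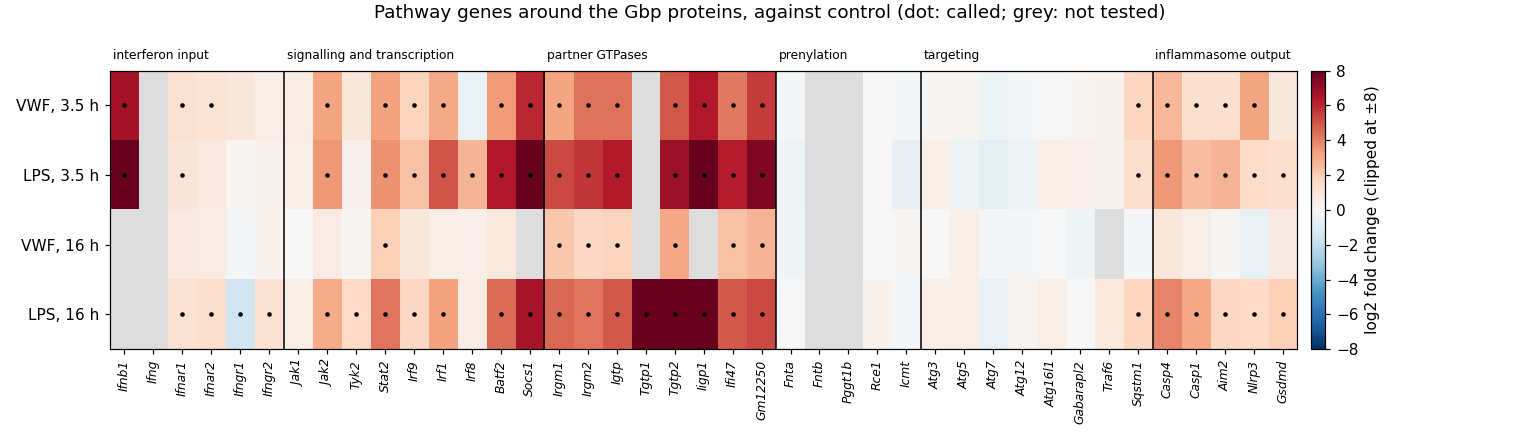
Log2 fold change against control of the 41 genes of the list, in columns by role, for VWF and LPS at both times in rows. Colour runs from blue (lower) to red (higher) and is clipped at 8 in both directions, a dot marks a called gene, and grey marks a gene that was not tested. The partner GTPases are called in all 4 rows wherever they were tested, and the prenylation genes carry no dot.

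Of the 5 interferon and receptor genes tested, 3 were called higher with VWF and 2 with LPS at 3.5 h. Ifnb1, which encodes interferon-beta, stood at 0.042 ± 0.056 CPM in controls, 3.94 ± 1.30 CPM with VWF and 170.5 ± 51.4 CPM with LPS at 3.5 h. The log2 fold changes were 6.64 ± 0.61 and 12.08 ± 0.46, and VWF was below LPS by a log2 difference of -5.42 ± 0.30. At 16 h the levels were 0.0085, 0.082 and 2.96 CPM, and Ifnb1 was not tested against control there. Ifng, the gene of interferon-gamma, had at most 1 count in any control or VWF culture. In LPS cultures it had at most 21 counts at 3.5 h and 23 at 16 h. The receptor gene Ifngr1 was the 1 list gene called lower with LPS at 16 h (-1.51 ± 0.18) and the 1 called higher with VWF than with LPS at that time (1.47 ± 0.16).

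Among signalling and transcription genes, 6 of 9 were called higher with VWF and 7 of 9 with LPS at 3.5 h. Irf9 rose by 1.77 ± 0.07 with VWF and 2.35 ± 0.08 with LPS on the log2 scale, and Irf1 by 3.01 ± 0.23 and 5.06 ± 0.25. Irf8, which encodes a factor of the myeloid lineage, had a log2 fold change of -0.56 ± 0.14 with VWF, under the fold threshold, and rose by 2.72 ± 0.16 with LPS. Socs1, an inhibitor of interferon signalling, rose by 6.04 ± 0.27 and 8.63 ± 0.19. At 16 h, 1 of 8 was called higher with VWF, Stat2 (1.93 ± 0.36), and 7 of 9 with LPS. Irf1 was at 430.9 CPM with VWF at 3.5 h and at 57.6 CPM at 16 h, and fell by 2.90 ± 0.12 on the log2 scale.

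The immunity-related GTPases, smaller GTPases that act on the same vacuoles, were called higher with both treatments wherever they were tested. All 7 tested were called higher with VWF and with LPS at 3.5 h, 6 of 6 with VWF at 16 h and 8 of 8 with LPS at 16 h. In the comparison of the control groups 5 of the 8 passed the filter. The others were tested only where treated cultures brought them over it, so these counts are descriptions. At 3.5 h Igtp rose by 4.32 ± 0.17 with VWF and 6.33 ± 0.09 with LPS, Irgm1 by 3.14 ± 0.17 and 5.29 ± 0.14, Gm12250 (also known as Irgb10) by 5.57 ± 0.23 and 7.45 ± 0.22 and Iigp1 by 6.42 ± 0.35 and 9.90 ± 0.27. Between the times all 7 tested fell with VWF, Igtp by 1.56 ± 0.17 and Iigp1 by 2.21 ± 0.32. With LPS they did not move one way, as Tgtp1 and Tgtp2 were called higher at 16 h than at 3.5 h and Gm12250 lower, of 8 tested. In the change of the LPS effect Tgtp1 was called higher and Irgm2, Igtp, Ifi47 and Gm12250 lower. At 16 h the list gene with the largest called change was Tgtp2 with VWF (3.08 ± 0.39) and Tgtp1 with LPS (11.76 ± 0.63), and Tgtp1 and Tgtp2 are near-identical copies whose reads may be split.

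Of the inflammasome genes, Casp4, which encodes caspase-11, rose by 2.63 ± 0.10 with VWF and 3.47 ± 0.10 with LPS at 3.5 h. Casp1 rose by 1.30 ± 0.09 and 2.45 ± 0.10 and Aim2, a DNA sensor, by 1.28 ± 0.13 and 2.69 ± 0.10. Nlrp3 rose by 3.15 ± 0.26 with VWF and 1.48 ± 0.23 with LPS, and was the 1 list gene called higher with VWF than with LPS at 3.5 h (1.69 ± 0.23). Gsdmd, which encodes the pore-forming gasdermin D, had a log2 fold change of 0.88 ± 0.06 with VWF, under the fold threshold, and rose by 1.32 ± 0.09 with LPS. At 16 h 0 of these 5 were called with VWF by edgeR, though 3 had an adjusted p under 0.05 (Casp4 0.91, Gsdmd 0.70 and Casp1 0.56 on the log2 scale), and all 5 were called higher with LPS. The 3 genes for prenylation that were tested had a median log2 fold change of -0.14 with VWF and -0.39 with LPS at 3.5 h, under the fold threshold. Stat2, Nlrp3, Ifngr1, Sqstm1, Irgm2, Ifi47 and, in the LPS comparison of the times, Tgtp2 are named because of their values. Of the 8 genes that direct GBPs to vacuoles, Sqstm1 alone was called in the comparisons with control, higher with VWF at 3.5 h (1.69 ± 0.08) and with LPS at both times (1.33 ± 0.10 and 1.70 ± 0.15).

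Between the times 0 list genes were called higher and 2 lower of 32 in controls (4.12% and 4.99% of all genes), the larger being Nlrp3 at -1.16 ± 0.31. With VWF 0 were called higher and 18 lower of 37 (9.15% and 12.2% of all genes), and with LPS 5 higher and 8 lower of 38 (14.6% and 13.5%). Ifnb1 changed most in both, by log2 differences of -5.55 ± 0.42 and -5.83 ± 0.41. In the interaction tests for the VWF effect 0 were called higher, against 5.47% of all genes, and 15 of 37 lower, against 8.05% of all genes, with Nlrp3 (-3.64 ± 0.43) the largest. For the LPS effect 2 were called higher and 10 lower of 38 (13.5% and 12.8% of all genes), and for the gap between VWF and LPS 1 higher and 16 lower of 38 (10.7% and 14.3%). Tgtp1 was the largest in both of these, at 3.74 ± 1.09 and -4.96 ± 0.53, and also in the comparison of VWF with LPS at 16 h (-8.35 ± 0.48).

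The genes whose pattern over the 28 cultures was most like that of the members were sought among 8860 genes by Pearson correlation of log2 CPM with the mean z-score of the 7 members that passed. They were Tgtp2 (r = 0.995), Ifit2 (0.994), Iigp1 (0.994), Cxcl9 (0.991) and Cmpk2 (0.990). These values describe cultures that share 6 group levels. Single members correlated with their own mean at 0.947 for Gbp9, 0.958 for Gbp4, 0.960 for Gbp5, 0.967 for Gbp6 and 0.993 to 0.996 for Gbp3, Gbp7 and Gbp2. Tgtp2 stood at 1.94 CPM in controls, 60.2 CPM with VWF and 234 CPM with LPS at 3.5 h. Ifit2, an interferon-induced gene, stood at 11.2, 916 and 4831 CPM. Cxcl9, an interferon-induced chemokine gene, stood at 0.019, 8.51 and 288 CPM.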

How the data were processed

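RNA of 28 BMDM cultures in 6 groups was sequenced by the authors as 150-base paired reads, aligned with STAR to GRCm38/mm10 and deposited as read counts per gene in 1 table of 54532 genes. The submitters' processing notes name STAR and the build. The sources used here give no annotation, strand setting or treatment of reads with several matches. Groups came from the sample labels, and every sample column was used.

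Counts were tested with edgeR 4.0.16 in R 4.3.3 (quasi-likelihood F test, robust, TMM factors, library size as the full column total), with the cultures of each comparison only. Genes reaching 10 TPM in at least 1 of those cultures were kept, with TPM from GENCODE M21 exon unions. The filter and both thresholds (adjusted p 0.05, absolute log2 fold change 1) follow the study's methods, which used DESeq2. SE is the absolute log2 fold change divided by the square root of F. CPM used TMM factors over all 28 cultures. Promoters came from RefSeq, and the script was tested on simulated data.

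The members and gene lists were chosen with earlier results of these data known. All 8 members were named. From the list of 41 genes, 13 were fixed by name together with the list gene of largest called change in each comparison, and the 5 genes most correlated with the members were named. A further gene of the list is not reported here, and the list's counts leave it out. Alternatives were DESeq2 1.42.0, median-of-ratios factors, library size alone, other filters, no fold threshold, 1 fit of all groups, a replicate block, related Gbp genes summed and each culture left out. Counts of cultures of a group differed beyond sampling noise (chi-square per degree of freedom at least 17.1 over 52 pairs). Replicate numbers paired the samples by the correlation of their deviations only for VWF against LPS at 16 h (0.16 to 0.78 over 4 pairs). Marker sums followed the numbers in part, however. Stromal markers were highest in replicate 1 in every group but LPS 3.5 h, and lowest in replicate 3 in every 3.5 h group. Neutrophil markers were highest in replicate 4 in every group but Control 16 h. Whether same-numbered cultures share a source was not tested, and the main tests hold no pairing. Total counts were 41131209 to 77699206 per culture, and floors cover counting error only, not the spread between cultures.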

Additional observations from a re-analysis of the deposited data

Results flagged for a closer look

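Of the 48 groups of 4 or 5 cultures examined (8 members in 6 groups), 2 held a culture far from the others, where chance gives about 1 in 20. Gbp2 in VWF 16 h replicate 3 was at 129.9 CPM, with the nearest of the other cultures at 93.6 CPM. Gbp6 in VWF 3.5 h replicate 4 was at 24.8 CPM, with the nearest at 14.6 CPM. The latter culture alone brought Gbp6 over the filter in VWF cultures at 3.5 h.

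Effects that differed between 3.5 h and 16 h were found by the edgeR interaction test. The effect of VWF was smaller at 16 h for Gbp5 (-5.62 on the log2 scale), Gbp3 (-2.18), Gbp7 (-1.96) and Gbp2 (-1.28). The effect of LPS was larger at 16 h for Gbp6 (1.62) and Gbp2 (1.13), and each of these calls was lost when 1 of some single cultures was left out. The difference of VWF from LPS was more negative at 16 h for Gbp5 (-5.26), Gbp4 (-2.90), Gbp3 (-2.75), Gbp7 (-2.75), Gbp2 (-2.41) and Gbp6 (-1.87), and for Gbp8 in a fit without the filter (-1.40). For Gbp9 the interaction terms were 0.59, 0.72 and -0.12, and 0 of these 3 passed the thresholds in edgeR or had an unadjusted p under 0.05.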

How the results depend on the processing

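Of 1404 values of the members under alternatives, 1381 kept their direction and side of the thresholds, 12 lost the call, 3 gained one and 8 changed sign, all 8 for values not called. A member that fell under the filter in an alternative is left out of these values, such as Gbp6 without VWF 3.5 h replicate 4. With filterByExpr or without a filter, 7 members were called in VWF against control at 16 h in place of 3. The shares of all genes called in those fits are not given here, so this count is a description. In the summed setting the chromosome 5 genes are 1 feature and Gbp3 with Gbp7 another, counted once per member. That setting also gave 7 there, but not the same members as the fit without a filter. Gbp8 counts through the chromosome 5 feature, and Gbp5 stays under the filter. Counts of the summed setting are therefore not counts of separate genes. It called 1 member in LPS at 16 h against 3.5 h, where Gbp4 and Gbp6 fell to 0.97, and 5 in the change of the LPS effect, where library size alone and no filter called 1 and leaving out single cultures called 1 to 2. Gbp6 lost its call there with library size alone (adjusted p = 0.055, edgeR) and without a filter (0.10). Gbp9 was called in the change of the VWF to LPS difference when summed (-1.15).

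Signs changed for Gbp9 in VWF at 16 h against 3.5 h (-0.15, summed) and for Gbp6 in the change of the VWF effect (0.072 summed and 0.0095 without Control 16 h replicate 2). They also changed for Gbp4 in the change of the LPS effect (-0.025 without Control 3.5 h replicate 1) and for Gbp9 in the change of the VWF to LPS difference. There the values were 0.038 with library size alone, 0.0024 without VWF 3.5 h replicate 5, 0.017 without LPS 3.5 h replicate 1 and 0.018 without VWF 16 h replicate 4. Leaving out single cultures took these interaction terms from -0.53 (Gbp6), to 1.39 (Gbp4) and from -0.33 (Gbp9). The cause was not tested.

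By library size alone the summed CPM was 28.9 in controls at 3.5 h, 3619 with LPS at 3.5 h and 3612 with LPS at 16 h. That scaling moved the median log2 fold change of all genes to -0.22 and -0.54 for VWF and LPS against control at 3.5 h, -0.57 for LPS against control at 16 h, and 0.30 and 0.44 for VWF against LPS at 3.5 h and 16 h. Genes called higher and lower then numbered 612 and 643 (against 753 and 453 with TMM factors), 708 and 2157 (1047 and 963), 793 and 2253 (1221 and 989), 751 and 340 (353 and 503) and 1726 and 700 (837 and 1095). For the change of the VWF effect they numbered 612 and 570 (474 and 697) and for that of the VWF to LPS difference 1172 and 898 (879 and 1173). Every member called in these treatment comparisons kept its call.

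The replicate block gave 6, 7, 7, 3, 7 and 7 called members in the treatment comparisons, as without it, and it changed no other count of calls. Gbp6 rests on reads that Gbp10 could share, and Gbp8 and the control levels of Gbp4 on few reads.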
